A study of Mus musculus with 15 samples.

Results

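The genes described here encode the coats, GTPases, SNAREs and cargo receptors that carry vesicles between the endoplasmic reticulum (ER) and the Golgi. They are 43 of the 50051 features in the RNA-seq counts, chosen by name for their function: 9 COPI coat subunits, 11 COPII coat genes, 6 SNAREs, 8 Arf GTPases and regulators, 4 Rab GTPases and 5 cargo receptors. Testis RNA was sequenced from B6D2F1 mice at postnatal day 28. The homozygous knockout (Chr18-/-, labelled KO, called Homo here) lacks a pachytene piRNA locus, the heterozygote (Chr18+/-, labelled HT control, Het) carries it on 1 chromosome, and the wild type (Chr18+/+, labelled WT control, WT) serves as the common control. Each genotype had 3 strand-specific total RNA libraries made after ribosomal RNA depletion. Homo and Het testes also had 3 small RNA libraries each, made after periodate oxidation, which leaves piRNAs intact because their 3′ ends are methylated. The labels do not say that replicate libraries came from separate animals, so p-values measure the spread between libraries, which may be technical. All 43 genes passed the filter on low counts in RNA-seq.

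Newly made proteins leave the ER in COPII vesicles, whose coat is laid down when the GTPase SAR1 is activated and recruits SEC23, SEC24 and then SEC13 with SEC31. COPI vesicles, recruited by Arf GTPases, return receptors and escaped ER proteins from the Golgi to the ER and move cargo between Golgi cisternae. Rab GTPases and tethers select the target membrane, and SNAREs drive the fusion. In the testis, round spermatids build the acrosome from Golgi-derived vesicles, so this traffic is heavily used in haploid germ cells.

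A promoter of 300 bases, 250 before and 50 after the RefSeq start (build GRCm38.p6), was matched for 39 of the 43 genes, in 46 records. Arcn1, Lman1, Rab2a and Tmed2 had no entry. Both strands were searched for 2 motifs, and no stretch of bases was counted under both. The core of the unfolded protein response element, TGACGTGG, which XBP1 and ATF6 bind when ER folding capacity is exceeded, was present in 9 of the 46 records (19.6%). In all 32851 promoter records of the reference table the share was 0.676%, and in the 88 records of the wider list of ER-Golgi genes described further on it was 2.27%. The cAMP response element, TGACGTCA, was present in 2 of the 46 (4.35%), those of Cope and Gosr2, against 1.79% of all promoters. The windows that hold the unfolded protein response core are shown because 8 of the 39 genes share this feature. Each is written 5′ to 3′ on the strand of the gene with the match in capitals, which reads as the reverse complement where the motif lies on the other strand.
Arf1 (chr11:59228213-59228272, minus strand): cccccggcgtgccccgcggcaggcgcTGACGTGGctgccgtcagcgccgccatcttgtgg
Copb1 (chr7:114254675-114254734, minus strand): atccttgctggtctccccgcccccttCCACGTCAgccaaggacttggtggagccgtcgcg
Copb2 (chr9:98563698-98563757, plus strand): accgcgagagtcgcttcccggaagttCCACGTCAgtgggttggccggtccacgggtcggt
Gbf1 (chr19:46152520-46152579, plus strand): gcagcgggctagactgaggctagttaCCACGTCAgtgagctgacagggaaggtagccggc
Kdelr3 (chr15:79516352-79516411, plus strand): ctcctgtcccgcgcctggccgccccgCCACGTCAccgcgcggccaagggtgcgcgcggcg
Sec23a (chr12:59011978-59012037, minus strand): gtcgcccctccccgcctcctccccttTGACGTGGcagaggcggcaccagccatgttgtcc
Sec24d (chr3:123267444-123267503, plus strand): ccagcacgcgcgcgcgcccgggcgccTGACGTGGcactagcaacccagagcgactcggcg
Stx5a (chr19:8741407-8741466, plus strand): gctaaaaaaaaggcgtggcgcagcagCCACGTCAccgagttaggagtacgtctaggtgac
They belong to both COPI beta subunits (Copb1, Copb2), the inner COPII subunits Sec23a and Sec24d, the SNARE Stx5a, the KDEL receptor Kdelr3, the GTPase Arf1 and the Arf exchange factor Gbf1. Counted from the start, the first base of the match lay 28 bases upstream in Copb1, 7 in Copb2, 12 in Gbf1, 30 in Kdelr3, 26 in Sec24d and 84 in Arf1. It lay 6 bases downstream of the start in Sec23a and 9 in Stx5a, where a second match began at 39 bases downstream. A match describes letters in this window and does not show that a factor binds there.

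Depth was 21684791 to 41513634 counts per RNA-seq library and 939641 to 1861402 per small RNA library. The precursor transcript of the deleted locus had 4, 6 and 3 counts in Homo libraries, 8948, 3983 and 4422 in Het libraries and 9595, 7283 and 5609 in WT libraries, so the Homo libraries matched their label. The chi-square of counts divided by its degrees of freedom was 3.12 to 50.7 for pairs of RNA-seq replicates and 2.11 to 27.2 for pairs of small RNA replicates, above the value of 1 that counting noise alone gives. WT library 1 and Het library 1 stood apart from the others of their group, at 47.6 and 50.7 for WT library 1 and at 39.2 and 42.6 for Het library 1, where the remaining pairs gave 3.12 and 17.9. Small RNA Het library 1 also stood apart, at 25.7 and 27.2 where the other Het pair gave 2.11. Sums over some marker lists of testis cell types moved with genotype. The sum over the 13 tested of 14 elongating spermatid markers was 8710 to 11700 CPM (counts scaled to library size) in Homo, 5240 to 13100 in Het and 15700 to 16400 in WT libraries. For 10 tested of 11 Leydig cell markers it was 538 to 720 CPM in Homo, 582 to 753 in Het and 1270 to 1410 in WT libraries. For the 16 early meiotic prophase markers it was 2990 to 3260 CPM in Homo, 2740 to 3330 in Het and 2240 to 2330 in WT libraries. For 6 peritubular myoid markers it was 273 to 301 CPM in Homo, 279 to 328 in Het and 356 to 374 in WT libraries. The single genes of these lists did not all move with their sum. Of the 16 prophase markers, 2 were negative in each comparison with WT. In Het over WT 9 of them passed the edgeR test as higher and 2 as lower. Of the 10 Leydig markers 1 was positive in each comparison, while all 13 elongating spermatid markers were negative. For the 6 myoid genes the median log2 fold change was -0.15 in Homo over WT, with 6 negative. In Het over WT it was -0.04, with 4 negative and 2 positive. The elongating marker Cabs1 and the Leydig marker Insl3 were listed at 0 in all 9 libraries, but 100% of each gene body lies within other features of the same strand, where fragments were not counted, so their level is not known from these counts. Sums of the pachytene spermatocyte, round spermatid, spermatogonium and macrophage lists overlapped between Homo and WT and between Het and WT, and the sum of 12 Sertoli cell markers was 1030 to 1190 CPM in Homo, 970 to 1090 in Het and 1110 to 1170 in WT libraries. In whole testis, fewer cells of a type cannot be told apart from less RNA per cell. The part of these shifts in the values that follow was not tested.

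Relative to gene body length, over which fragments were counted, Rab1b was the highest of the 43 genes in Homo testes, at 7.8 CPM per kb. It was also first in WT testes at 10.9. Arf5 (7.75 in Homo, 8.47 in WT) and Arf1 (7.53 in Homo, 8.7 in WT) followed. The lowest levels per kb of gene body in both genotypes were those of Sec24d (0.105 in Homo, 0.103 in WT) and Kdelr3 (0.24 in Homo, 0.234 in WT). This order depends on the length used. Per kb of exon Arf1 was first, at 60.8 CPM in Homo and 70.2 in WT. By that measure Rab1b had 33.1 in Homo and 46.1 in WT, and Arf5 had 12.4 and 13.5. The summed CPM of all 43 genes was 3100, 3220 and 3040 in Homo, 2950, 3000 and 3030 in Het and 3410, 3030 and 3040 in WT libraries. Homo and WT libraries overlapped in this sum, while single genes moved in both directions.

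Against WT, 8 of the 43 genes (18.6%) changed in Homo testes by edgeR's quasi-likelihood test at a Benjamini-Hochberg adjusted p under 0.05, where 20.8% of the 20782 tested features did. Bet1, Sar1b, Rab1a and Lman1 rose, 4 of 43 against a background of 9.68%. Copz2, Rab1b, Arfgap2 and Kdelr1 fell, 4 of 43 against a background of 11.1%. In Het testes 10 of the 43 (23.3%) changed against WT, where 23.9% of features did. Bet1, Sar1b and Rab1a rose (3 of 43, background 11.1%), and Copz2, Sec13, Arfgap2, Rab1b, Arfgap3, Kdelr1 and Arf4 fell (7 of 43, background 12.9%). The shares of changed genes were thus near those of all features. The libraries did not overlap for 24 of 43 genes between Homo and WT (42.6% of all features) and for 22 of 43 between Het and WT (42.1%). The median log2 fold change over the 43 was 0.00 in Homo over WT, where it was -0.01 over all features, and -0.06 in Het over WT, where it was 0.00. Both comparisons use the same WT libraries, so their values stand side by side and are not independent. In Homo testes 2 genes passed without Homo library 2, 1 without Homo library 3 and 6 without WT library 1. Calls over all features also fell there, from 4319 to 1899, 1805 and 2915. In Het testes 4 passed without WT library 1 and 6 without Het library 1 or 3. Over all features these calls went from 4977 to 2901, 4091 and 2432. Without both RNA-seq libraries that stood apart 7 passed in Homo and 3 in Het, where 3897 and 2722 of all features did. With no scaling the calls split into 6 higher and 3 lower in Homo and 5 higher and 3 lower in Het, and the Het median of the 43 was 0.04 where that of all features was 0.1.

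**Figure D1:**
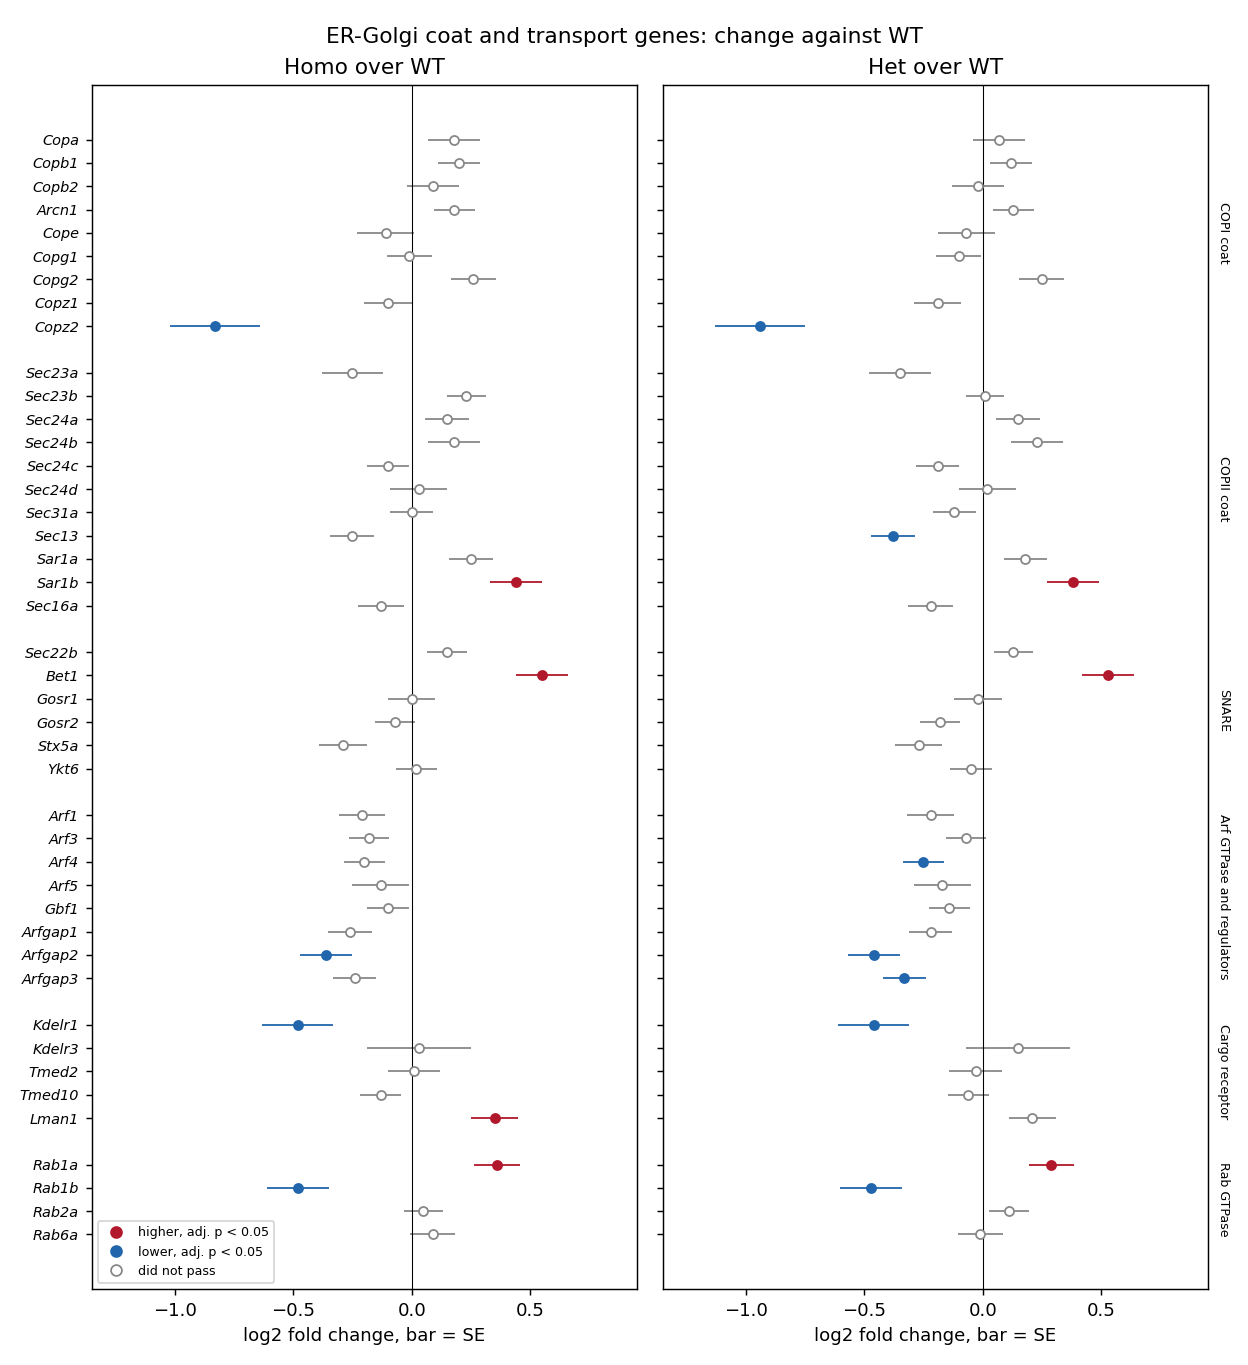
Change of all 43 ER-Golgi transport genes by functional class: the x axis is the log2 fold change of Homo over WT (left) and Het over WT (right), points are edgeR estimates and bars are standard errors. Red and blue points passed an adjusted p under 0.05, and the 8 Arf genes and regulators lie left of 0 in both panels, from -0.36 to -0.10 in Homo over WT, although Arf3 in Het over WT turned to 0.03 with no scaling.

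Between Homo and Het testes 0 of 43 genes passed the edgeR test (0.0289% of features did), with 1 at an unadjusted p under 0.05 and 0 by DESeq2. Libraries did not overlap for 7 of 43, where 8.31% of all features did not. The log2 fold changes of Homo over Het ran from -0.12 to 0.21 with a median of 0.05, and 32 of 43 were positive, where the median over all features was 0.01 and 10786 of 20782 were positive. With no scaling the median of the 43 was 0. The gene at the upper end was Sec23b (0.21, 95% interval 0.04 to 0.39, edgeR adjusted p = 1). For genes that stood away from WT the intervals of the difference were -0.20 to 0.25 for Bet1, -0.32 to 0.54 for Copz2, -0.13 to 0.28 for Rab1a and -0.29 to 0.27 for Rab1b. These 95% intervals give the differences between Homo and Het that remain possible with 3 libraries each.

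In the COPI coat, 1 of 9 subunits fell against WT in each genotype and the others did not pass. Of all features 11.1% fell in Homo and 12.9% in Het. Copz2 (chr11:96849870-96861203 in mm10), the less abundant of the genes for the zeta subunit, had 3.36, 4.41 and 3.2 CPM in Homo testes, 3.59, 4.04 and 2.51 CPM in Het testes and 7.06, 5.98 and 6.41 CPM in WT testes. Every Homo and Het library lay below every WT library. The log2 fold change was -0.83 ± 0.19 (SE) in Homo over WT, a ratio of 0.564 (edgeR adjusted p = 0.0127), and -0.94 ± 0.19 in Het over WT (0.00709). Without Homo library 3 the first call was lost (adjusted p = 0.0579). Its paralog Copz1 had 44.6, 44.6 and 44.9 CPM in Homo, 40.4, 44.5 and 41.1 in Het and 55.2, 44.5 and 43.7 CPM in WT libraries. It overlapped with WT in both genotypes. Homo libraries lay above Het libraries, by a narrow margin (44.6 against 44.5 CPM). That log2 fold change was 0.09 (95% interval -0.13 to 0.31) and did not pass. Copg2, the second gene for the gamma subunit, had 142, 162 and 157 CPM in Homo, 144, 144 and 167 in Het and 137, 125 and 122 CPM in WT libraries. Both other genotypes lay above WT without overlap, at log2 fold changes of 0.26 (edgeR adjusted p = 0.0674) and 0.25 (0.0792) that did not pass. Copg2 passed in some alternative edgeR settings. In Homo these included no scaling (0.0227) and the fits without WT library 1 (0.0495) or both libraries that stood apart (0.0321). In Het it passed with no scaling (0.0137). Copa, Copb1, Copb2, Arcn1, Cope and Copg1, the alpha, beta, beta prime, delta, epsilon and first gamma subunits, lay between -0.11 and 0.20 in Homo over WT and between -0.10 and 0.13 in Het over WT.

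In the COPII coat, 1 of 11 genes passed in Homo testes and 2 in Het testes, where 20.8% and 23.9% of all features did. Sar1b (chr11:51763687-51791925), a GTPase that starts coat assembly, had 25.7, 30.7 and 28.1 CPM in Homo, 27.8, 26.6 and 26.8 in Het and 18.1, 21.8 and 22.5 CPM in WT libraries. WT libraries were the lowest without overlap, and Sar1b rose in Homo (0.44 ± 0.11 SE, ratio 1.36, edgeR adjusted p = 0.0147) and in Het (0.38 ± 0.11, 0.023). The Homo call was lost without Homo library 2 (0.0674) or 3 (0.0522), and the Het call without Het library 1 or 3 (0.0564 each) or WT library 1 (0.066), or without both libraries that stood apart (0.27, 0.136). Sar1a, its more abundant paralog, had 80.3, 88.1 and 84.9 CPM in Homo, 76.9, 80.3 and 83.3 in Het and 63.8, 71.8 and 77.6 CPM in WT libraries. Homo lay above WT, at 0.25 (adjusted p = 0.0715), and Het overlapped it. Sec13 (chr6:113728062-113740743), which forms the outer cage with SEC31, had 81.8, 79.4 and 82 CPM in Homo, 72.5, 77.6 and 72.5 in Het and 109, 88.7 and 92 CPM in WT libraries. It fell in Het (-0.38 ± 0.093, edgeR adjusted p = 0.014), missed the threshold in Homo (-0.25 ± 0.093, 0.071), and differed by 0.13 between Homo and Het (95% interval -0.07 to 0.33). Without both libraries that stood apart its Het call was lost (0.0661).

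The SEC23 paralogs, which activate GTP hydrolysis by SAR1, lay on opposite sides of WT in Homo testes, and neither passed the test. Sec23a had 143, 169 and 161 CPM in Homo, 117, 157 and 166 in Het and 198, 179 and 183 CPM in WT libraries. Every WT library was above every other, with log2 fold changes of -0.25 (edgeR adjusted p = 0.18) in Homo and -0.35 (0.0592) in Het. Sec23b had 62, 64.4 and 60 CPM in Homo, 53.3, 52.9 and 54.4 in Het and 57.4, 51.3 and 50.5 CPM in WT libraries, and only the Homo libraries were clear of WT (0.23, 0.069). In alternative edgeR settings Sec23b passed in Homo with no scaling (0.0223). It also passed without WT library 1 (0.0346) or both libraries that stood apart (0.0321). The cargo-binding genes Sec24a, Sec24b, Sec24c and Sec24d, the cage gene Sec31a and the exit-site organiser Sec16a ran from -0.13 to 0.18 in Homo over WT and from -0.22 to 0.23 in Het over WT, and none passed.

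Of 6 SNAREs, 1 rose in each genotype, where 9.68% of all features rose in Homo and 11.1% in Het. Bet1 (chr6:4076899-4086972), a SNARE of ER-derived vesicles, had 34, 32.9 and 34.9 CPM in Homo, 33.2, 29.2 and 37.9 in Het and 21.5, 24.3 and 23.7 CPM in WT libraries. All Homo and Het libraries lay above all WT libraries. Its log2 fold change was 0.55 ± 0.11 (SE) in Homo over WT, a ratio of 1.47 (edgeR adjusted p = 0.0057), and 0.53 ± 0.11 in Het over WT, a ratio of 1.44 (0.00628). Bet1 had the largest rise of the 43 genes in both comparisons and passed in all 18 alternative settings run for each. Stx5a, the Golgi syntaxin that pairs with BET1, had 60.1, 47.8 and 53.9 CPM in Homo, 57.2, 57.1 and 50.1 in Het and 68.3, 67.6 and 62.5 CPM in WT libraries. Its libraries lay below WT without overlap in both genotypes, at -0.29 (edgeR adjusted p = 0.0566) and -0.27 (0.068), neither of which passed. Sec22b, Gosr1, Gosr2 and Ykt6, the other SNAREs of this step and of the Golgi, ran from -0.07 to 0.15 in Homo over WT and from -0.18 to 0.13 in Het over WT.

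All 8 Arf GTPases and regulators had negative log2 fold changes against WT in both genotypes, with medians of -0.21 in Homo and -0.22 in Het, except that Arf3 in Het turned to 0.03 with no scaling, and only some passed. Over all features, 10702 of 20782 were negative in Homo over WT and 10435 in Het over WT. The summed CPM of the 8 was 660, 643 and 620 in Homo, 628, 637 and 611 in Het and 805, 697 and 700 in WT libraries, so that WT was highest without overlap. Arfgap2 (chr2:91264974-91276931), which drives GTP hydrolysis by Arf on COPI vesicles, had 50.7, 54.4 and 48.3 CPM in Homo, 47.9, 47.9 and 47.4 in Het and 78.3, 58.8 and 59.7 CPM in WT libraries. It fell in Homo (-0.36 ± 0.11 SE, edgeR adjusted p = 0.0387) and in Het (-0.46 ± 0.11, 0.0133). WT library 1 was the highest, and without it the Homo value did not pass (-0.21, adjusted p = 0.107), nor did it without Homo library 1 (0.0829), 2 (0.0703) or 3 (0.132). Without both libraries that stood apart the Het value did not pass either (0.052). Arfgap3 (chr15:83299740-83350247), of the same family, had 109, 100 and 101 CPM in Homo, 92.2, 98.5 and 100 in Het and 134, 114 and 116 CPM in WT libraries. It fell in Het (-0.33 ± 0.09, edgeR adjusted p = 0.023) and missed the threshold in Homo (-0.24 ± 0.09, 0.0798), with a difference of 0.09 between Homo and Het (95% interval -0.11 to 0.29). The Het call was lost in 6 of 18 settings, among them without Het library 1 (0.0602) or WT library 1 (0.0674). The value moved to -0.21 without both libraries that stood apart (0.12) and with both strands summed (0.116).

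Arf4 (chr14:26638074-26665084), an Arf GTPase of the Golgi, had 117, 104 and 113 CPM in Homo, 107, 113 and 103 in Het and 137, 126 and 122 CPM in WT libraries. WT was highest without overlap. It passed narrowly in Het (-0.25 ± 0.086 SE, edgeR adjusted p = 0.0499) and not in Homo (-0.20 ± 0.086, 0.115), and the Het call was lost in 15 of 18 alternative settings, where the adjusted p reached 0.221. Each of the 9 libraries left out in turn ended it, with adjusted p from 0.0516 without Het library 2 to 0.141 without WT library 1. Of the gene body, 19.4% lies opposite to Arf4os and Pde12. Arfgap1 had 26.8, 25.6 and 22.2 CPM in Homo, 25.9, 26 and 25 in Het and 30.6, 29.1 and 29.7 CPM in WT libraries, below WT without overlap, and missed the threshold at -0.26 in Homo (edgeR adjusted p = 0.0636) and -0.22 in Het (0.102). Arf1, Arf3, Arf5 and Gbf1, which loads Arf with GTP, lay between -0.21 and -0.10 in Homo and between -0.22 and -0.07 in Het.

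**Figure D2:**
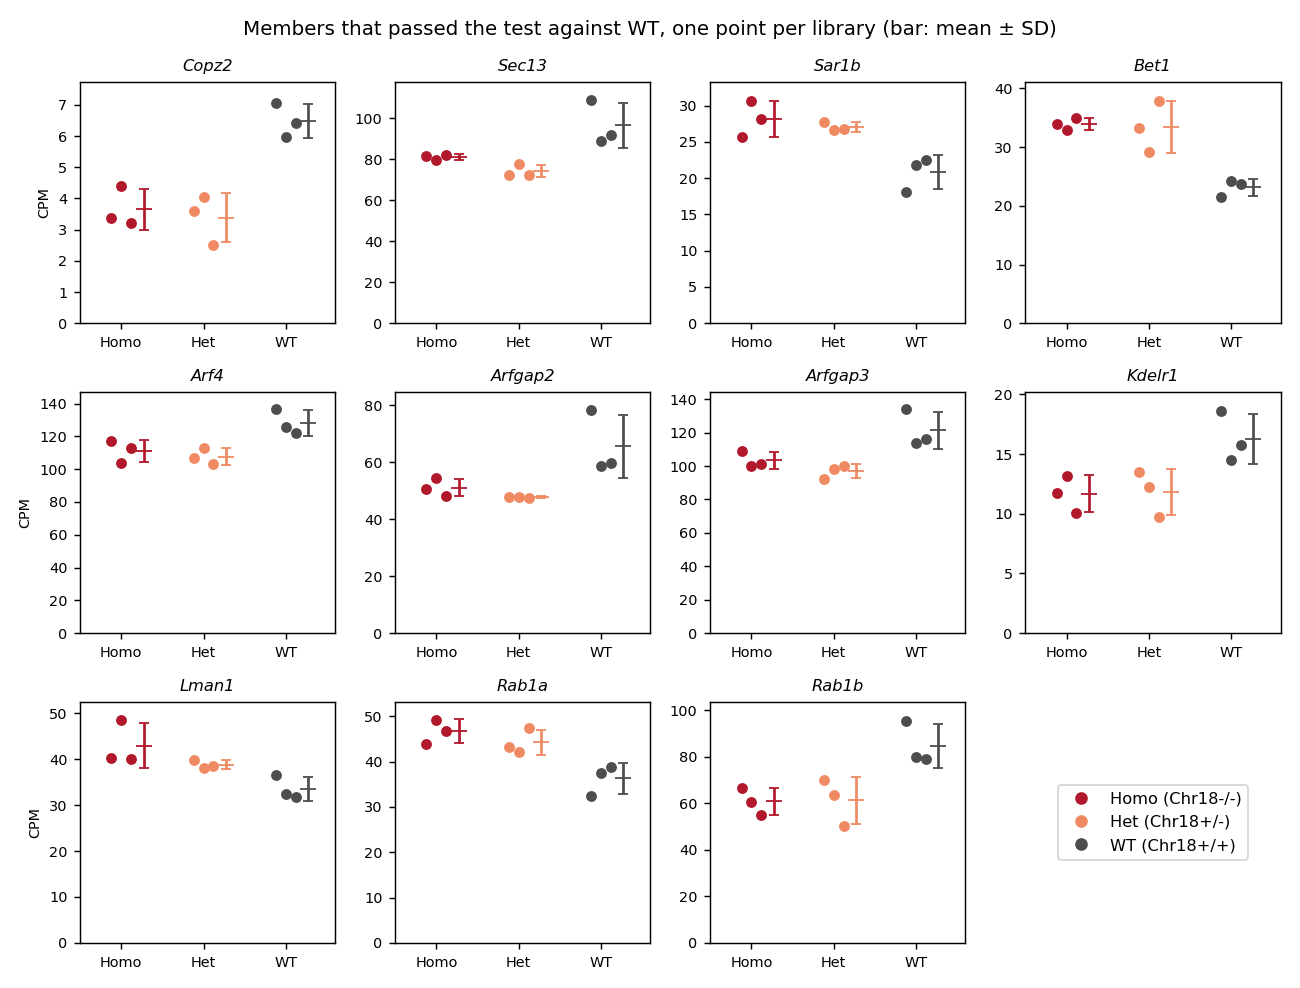
CPM in each of the 9 RNA-seq libraries for the 11 genes that passed against WT in Homo or Het testes; the y axis starts at 0, points are libraries in the order Homo, Het, WT, and bars are mean ± SD. Bet1, Sar1b, Rab1a and Lman1 sit higher in Homo than in WT, and the other genes sit lower.

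The RAB1 paralogs, which tether ER-derived vesicles to the Golgi, moved in opposite directions. Rab1a (chr11:20201432-20226856) had 44, 49.3 and 46.7 CPM in Homo, 43.3, 42.2 and 47.4 in Het and 32.4, 37.6 and 38.9 CPM in WT libraries. Rab1b (chr19:5099207-5106996) had 66.5, 60.7 and 55.1 CPM in Homo, 69.9, 63.4 and 50.3 in Het and 95.4, 79.7 and 78.9 CPM in WT libraries. For both genes the WT libraries lay outside the range of all other libraries, below them for Rab1a and above them for Rab1b. Rab1a rose by a log2 fold change of 0.36 ± 0.096 (SE) in Homo (ratio 1.29, edgeR adjusted p = 0.0212) and 0.29 ± 0.096 in Het (0.0457). Rab1b fell, at -0.48 ± 0.13 in Homo (ratio 0.718, 0.0225) and -0.47 ± 0.13 in Het (0.0222). Without WT library 1 the adjusted p became 0.053 and 0.12 for Rab1a in Homo and Het, and 0.0794 and 0.0884 for Rab1b. The Homo calls were also lost without Homo library 2 (0.0857 for Rab1a, 0.073 for Rab1b) or 3 (0.0681 and 0.099). The Het call of Rab1b was lost without Het library 3 (0.0777), and that of Rab1a without any 1 of the 9 libraries (0.0524 to 0.143). Rab2a and Rab6a, which act at and within the Golgi, did not pass, at 0.05 and 0.09 in Homo and 0.11 and -0.01 in Het. The promoters of the RAB1 pair are given to show how far these genes differ at the start site. GC content was 70.3% in Rab1a and 63.3% in Rab1b, with 27 and 30 CpG dinucleotides and no match to either motif, and the capital marks the RefSeq start base.
Rab1a (chr11:20201162-20201461, plus strand): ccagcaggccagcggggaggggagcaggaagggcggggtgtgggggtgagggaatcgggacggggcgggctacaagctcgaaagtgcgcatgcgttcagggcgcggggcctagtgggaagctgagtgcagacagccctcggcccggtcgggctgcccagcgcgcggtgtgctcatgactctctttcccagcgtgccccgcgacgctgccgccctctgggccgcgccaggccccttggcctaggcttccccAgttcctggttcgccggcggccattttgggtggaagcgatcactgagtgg
Rab1b (chr19:5106947-5107246, minus strand): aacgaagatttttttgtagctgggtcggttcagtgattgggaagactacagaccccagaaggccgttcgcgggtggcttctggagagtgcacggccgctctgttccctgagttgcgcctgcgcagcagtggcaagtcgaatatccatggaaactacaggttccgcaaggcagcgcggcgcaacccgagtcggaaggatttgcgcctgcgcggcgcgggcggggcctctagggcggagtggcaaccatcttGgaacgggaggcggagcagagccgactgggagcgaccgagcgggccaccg

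Because a ratio of paralogs within a library does not depend on scaling, 11 pairs were compared in this way, with 33 comparisons over the 3 genotype contrasts. The log2 ratio Rab1b/Rab1a was 0.6, 0.3 and 0.24 in Homo, 0.69, 0.59 and 0.08 in Het and 1.56, 1.08 and 1.02 in WT libraries. It was lower by 0.84 in Homo and by 0.77 in Het than in WT, with no overlap. The ratio Sec23b/Sec23a was -1.2, -1.4 and -1.42 in Homo, -1.13, -1.57 and -1.61 in Het and -1.79, -1.8 and -1.86 in WT libraries, higher by 0.48 in Homo and 0.38 in Het, or 0.23 in Het without Het library 1. Copz2/Copz1 differed from WT by -0.75 in Homo and -0.78 in Het, Copg2/Copg1 by 0.27 and 0.34 and Sar1b/Sar1a by 0.19 and 0.21. Kdelr3/Kdelr1 was higher in Het than in WT without overlap, by 0.59, and Arf3/Arf1 by 0.14. The Arf3/Arf1 difference was 0.06 without WT library 1, and the genotypes overlapped with both strands summed. Thus 5 of 11 pairs did not overlap between Homo and WT, 7 of 11 between Het and WT and 0 of 11 between Homo and Het. Single features did not overlap in 42.6%, 42.1% and 8.31% of cases. Those shares are for CPM, an unlike measure, and no share over ratios of other gene pairs was computed. With 3 libraries against 3, the two-sided exact permutation test cannot go below p = 0.1. Each comparison of a pair without overlap reached that value (0.275 after Benjamini-Hochberg adjustment over the 33), so none passed. In Sec24b/Sec24a, Sec24d/Sec24c, Arf5/Arf4 and Arfgap3/Arfgap2 the genotypes overlapped in every contrast.

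**Figure D3:**
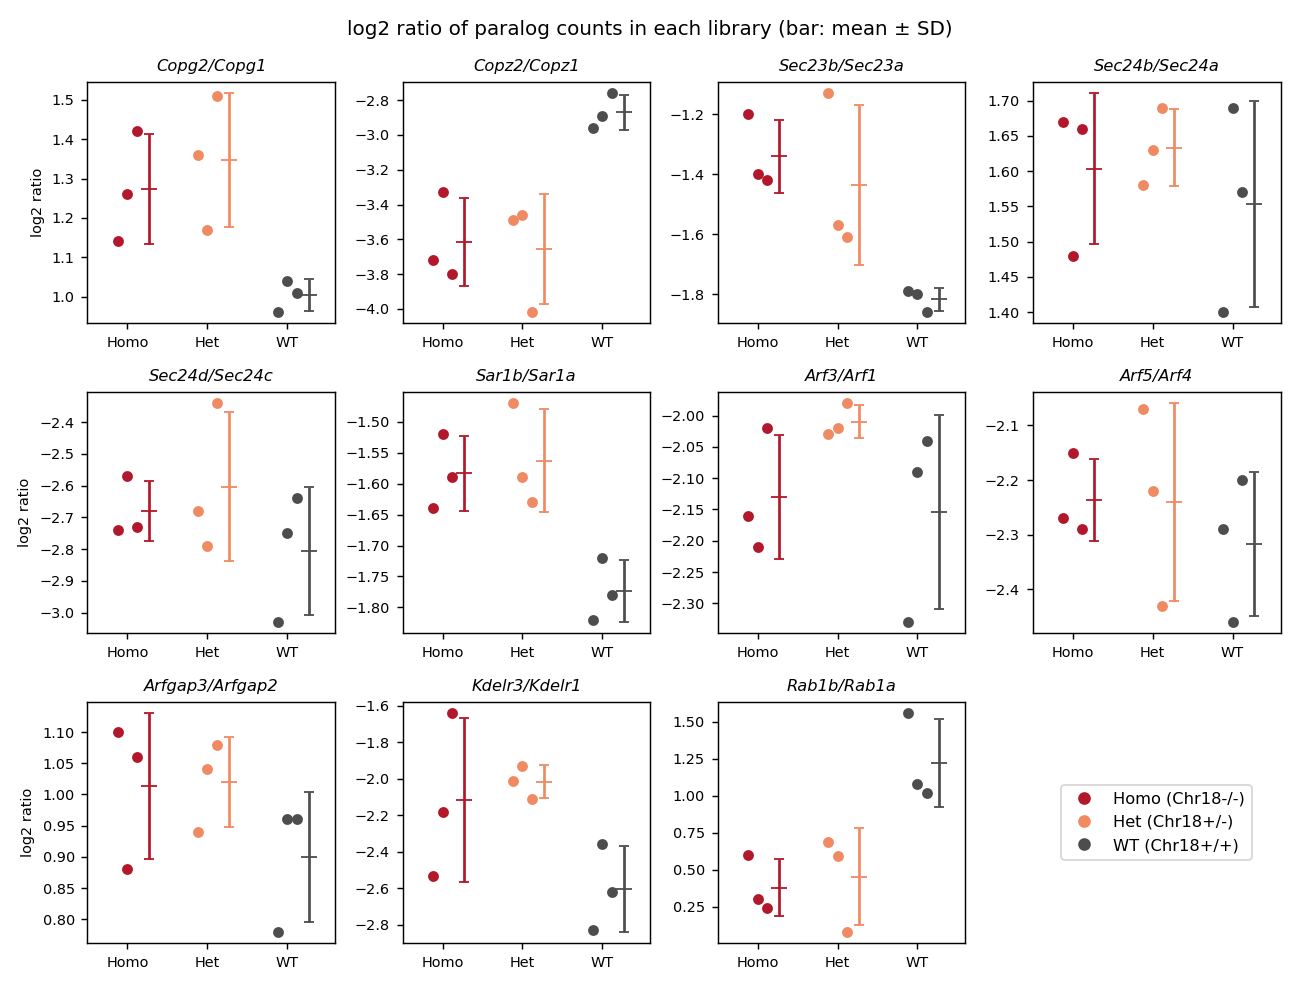
log2 ratio of the counts of 11 paralog pairs in each library; points are libraries in the order Homo, Het, WT, bars are mean ± SD, and each panel has its own y axis. In Rab1b/Rab1a the Homo and Het libraries lie between 0.08 and 0.69 and the WT libraries between 1.02 and 1.56.

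Of 5 cargo receptors, 2 passed in Homo testes and 1 in Het testes, where 20.8% and 23.9% of all features did. Kdelr1 (chr7:45872772-45883732), a receptor that returns ER-resident proteins from the Golgi, had 11.7, 13.2 and 10.1 CPM in Homo, 13.5, 12.2 and 9.73 in Het and 18.6, 14.5 and 15.8 CPM in WT libraries. WT was highest without overlap, and Kdelr1 fell in Homo (-0.48 ± 0.15 SE, edgeR adjusted p = 0.0396) and in Het (-0.46 ± 0.15, 0.04). Opposite-strand features cover 51.2% of its gene body. The Homo call was lost without Homo library 1 (0.077), 2 (0.0537) or 3 (0.151), Het library 2 (0.0515) or WT library 1 (0.137) or 3 (0.0743). The Het call was lost without Homo library 1 (0.052), Het library 2 (0.0662) or 3 (0.138), or WT library 1 (0.155) or 3 (0.0731). Kdelr3, a low paralog, had 2.72 ± 0.628 CPM in Homo, 2.93 ± 0.604 in Het and 2.65 ± 0.14 CPM in WT testes (SD, n = 3 libraries each) and did not pass. Lman1, the mannose lectin that carries glycoproteins out of the ER, had 40.2, 48.6 and 40 CPM in Homo, 39.8, 38 and 38.6 in Het and 36.6, 32.4 and 31.8 CPM in WT libraries. It rose in Homo (0.35 ± 0.10, ratio 1.28, edgeR adjusted p = 0.0274) and missed the threshold in Het (0.21 ± 0.099, 0.147), and Homo over Het was 0.15 (95% interval -0.07 to 0.36). The Homo call was lost without Homo library 2 (0.124) or 3 (0.0502) or WT library 2 (0.0906) or 3 (0.0938). Lman1 lies on the chromosome of the deleted locus, 1010 kb from its precursor transcript. The p24 proteins Tmed2 and Tmed10 did not pass, at 0.01 and -0.13 in Homo and -0.03 and -0.06 in Het.

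None of the 8 genes whose promoter holds the unfolded protein response core passed against WT in either genotype, where 20.8% of all features passed in Homo and 23.9% in Het. Some of these genes passed in alternative settings. Stx5a passed in Homo with DESeq2 (adjusted p = 0.0491), and with edgeR without Homo library 1 (0.0331) or Het library 3 (0.0485). Sec23a passed in Het with DESeq2 (adjusted p = 0.0433). With edgeR it passed there with no filter (0.0368), without Het library 3 (0.0484) and with gene length trends removed (0.0196). Gbf1 also passed in Het with gene length trends removed (-0.33, edgeR adjusted p = 0.031). The log2 fold changes of the 8 genes ran from -0.29 to 0.20 in Homo over WT (median -0.03) and from -0.35 to 0.15 in Het over WT (median -0.08). The 31 other genes with a promoter had medians of -0.07 and -0.07, and 7 of them passed in Homo and 10 in Het. Changes were also set against gene length. In Homo over WT the 4 that fell spanned 7.79 to 12 kb and the 4 that rose 10.1 to 41.8 kb, and in Het over WT the 7 that fell spanned 7.79 to 50.5 kb and the 3 that rose 10.1 to 28.2 kb. Pearson's correlation of the log2 fold change with log10 gene body length was 0.32 over the 43 genes and 0.16 over all 20782 features in Homo over WT, and 0.31 and 0.23 in Het over WT. These points are genes measured in the same libraries. With trends on gene length removed from each library, 9 genes passed in Homo, 4 higher and 5 lower, and 11 in Het, 2 higher and 9 lower. Over all features 4088 passed in Homo in that setting, 1739 of them higher, and 4267 in Het, 1704 of them higher. All 8 Homo calls passed there, with adjusted p up to 0.0499 for Lman1, and of the 10 Het calls those of Rab1a (0.0569) and Kdelr1 (0.0587) did not.

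In a wider list of 90 other ER-Golgi transport genes, 86 were tested, and 21 (24.4%) passed in Homo over WT, 13 higher and 8 lower, where 20.8% of all features did. In Het over WT 26 (30.2%) passed, 12 higher and 14 lower, where 23.9% of all features did, and 0 passed in Homo over Het by edgeR, where 3 had an unadjusted p under 0.05. Arf2, a further Arf GTPase, averaged 32.1 ± 2.22 CPM in Homo, 27.2 ± 1.53 in Het and 21 ± 0.728 CPM in WT testes (SD, n = 3 libraries each). It rose by 0.61 in Homo (edgeR adjusted p = 0.00166) and 0.37 in Het (0.0143), while the 4 Arf GTPases above had values from -0.21 to -0.13 in Homo. The wider list holds 8 Arf GTPases and regulators, which did not share the uniform sign of the 8 above. In Homo over WT 4 were positive and 4 negative (median 0.02), and in Het over WT 3 were positive and 5 negative (median -0.08). Higher in Homo were also the Golgi membrane proteins Yipf4 (0.43, 0.00641) and Ergic2 (0.52, 0.012) and the p24 protein Tmed6 (0.52, 0.0119). Lower in Homo were Yif1b (-0.69, 0.00757), a partner of YIPF proteins, the TRAPP tether genes Trappc6a (-0.72, 0.00836) and Trappc9 (-0.36, 0.016), and Napa (-0.45, 0.0114), which helps to take SNARE complexes apart. In Het testes the SNARE Vti1a (0.52, 0.00757), Tmed6 (0.47, 0.0161) and the p24 relative Tmed8 (0.36, 0.0161) rose. Napa (-0.56, 0.00465), Yif1b (-0.65, 0.00865), Trappc6a (-0.66, 0.0105) and the COG tether gene Cog8 (-0.57, 0.00944) fell there.

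Fragments on the strand opposite to each gene were deposited separately and were compared after the shares had been seen. Of the 43 genes, 29 had enough for the test. The clearest change of any member was here: Copb1, the beta subunit of COPI, had 2, 8 and 4 opposite-strand counts in Homo, 6, 2 and 3 in Het and 43, 52 and 34 in WT libraries. Every WT library was several times above every other. The log2 fold change was -3.08 ± 0.39 (SE) in Homo over WT (edgeR adjusted p = 0.000249) and -3.80 ± 0.41 in Het over WT (4.45e-05), while the sense value of Copb1 was 0.20 and 0.12. These counts are low beside the sense strand, at 0.139% of its counts in Homo, 0.0933% in Het and 1.49% in WT. Tmed10 had 178, 101 and 103 opposite-strand counts in Homo, 228, 228 and 142 in Het and 464, 332 and 294 in WT libraries. It was lower without overlap, at -1.42 ± 0.21 in Homo (0.000808) and -1.12 ± 0.21 in Het (0.00362), which is 10.7% of its sense level in Homo, 12.9% in Het and 28.2% in WT. Tmed2 had 67, 24 and 33 counts in Homo, 92, 58 and 30 in Het and 123, 89 and 59 in WT libraries, and was lower by the test in Homo (-1.02, edgeR adjusted p = 0.0489) but not in Het (-0.88, 0.0735). In CPM its libraries did not overlap with WT in either genotype.

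Arfgap3 went the other way on this strand, with 379, 441 and 538 counts in Homo, 484, 471 and 618 in Het and 226, 273 and 254 in WT libraries. It was higher by 0.92 ± 0.23 (SE) in Homo (edgeR adjusted p = 0.0212) and 0.80 ± 0.23 in Het (0.0344). Copb2, the beta prime subunit, had 20, 22 and 20 counts in Homo, 19, 19 and 20 in Het and 12, 4 and 11 in WT libraries, and passed in Homo alone (1.27, 0.0456; Het 0.83, 0.186). In all, 2 of 29 were higher and 3 lower in Homo over WT (4.19% and 5.51% of 12303 features), and 1 higher and 2 lower in Het over WT (4.12% and 6.05%). In Homo over Het 0 passed (0% of features), with 0 at an unadjusted p under 0.05 and 0 by DESeq2. The annotation used by the authors lists no feature opposite to Copb1, Tmed10, Tmed2 or Arfgap3, and 5.92% of Copb2 lies opposite to another feature. Copb1 and Tmed10 passed in each of 13 alternative settings in both comparisons. Arfgap3 was lost in Homo without Homo library 2 (0.0817) or 3 (0.103) or WT library 1 (0.097) or 2 (0.0533), and in Het without Homo library 2 (0.0545), Het library 2 (0.0699) or 3 (0.17) or WT library 1 (0.159) or 2 (0.0722). Tmed2 and Copb2 were lost in 7 of 13 settings, among them the removal of Homo library 2 (0.213 for Tmed2, 0.145 for Copb2), Homo library 3 (0.17 and 0.117), Het library 2 (0.0619 and 0.0579), WT library 1 (0.165 and 0.103) or WT library 2 (0.1 and 0.16). Tmed2 was also lost without WT library 3 (0.0611), and Copb2 without Homo library 1 (0.0675). Cope, the epsilon subunit, had opposite-strand counts at 60.3% of its sense counts in Homo, 54.8% in Het and 58.2% in WT testes and did not differ by the test.

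**Figure D4:**
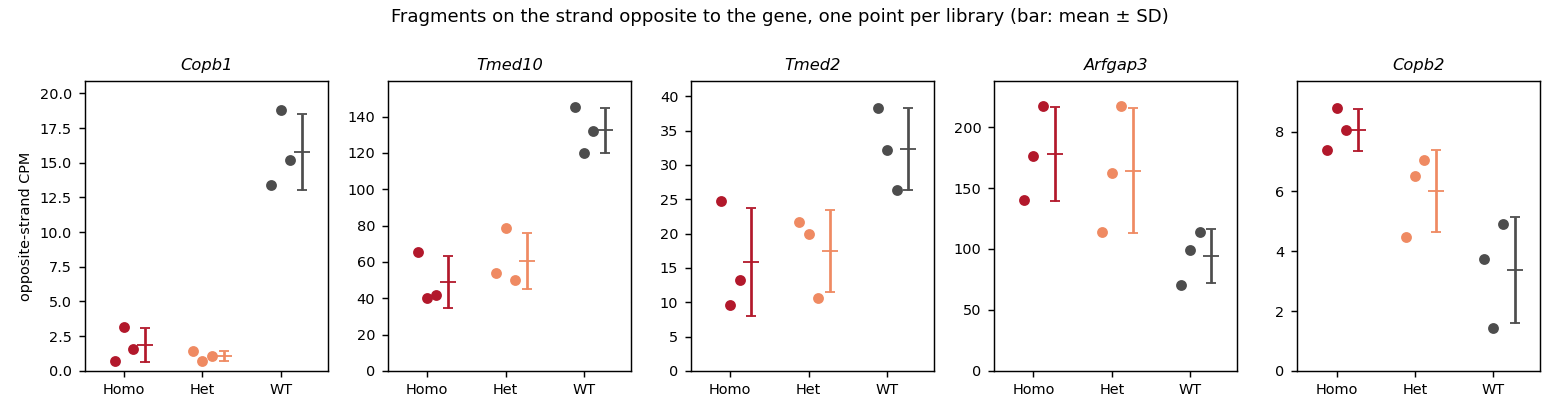
Opposite-strand CPM of 5 genes in each RNA-seq library, with libraries in the order Homo, Het, WT, bars as mean ± SD and y axes that start at 0. For Copb1 the Homo and Het libraries lie between 0.688 and 3.19 CPM and the WT libraries between 13.4 and 18.8 CPM. These CPM are scaled to opposite-strand totals, so they do not compare with sense CPM.

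In the small RNA libraries 5225 reads in all fell on exons of the 43 genes, and 14 genes passed the filter among 3581. Between Homo and Het 0 of 14 passed by edgeR (0.0279% of genes did), 2 had an unadjusted p under 0.05 and DESeq2 called 0. Without Het library 1, which stood apart, 617 genes passed in all and 0 of the 15 members tested there. Arfgap2 gave 44.2% of these reads, with 350, 308 and 309 in Homo and 595, 345 and 401 in Het libraries. Its level was 266 ± 30.4 CPM in Homo and 344 ± 13.1 CPM in Het (SD, n = 3 libraries each), without overlap, at a log2 fold change of -0.37 ± 0.16 (SE, edgeR adjusted p = 0.557). Sec16a had 27, 23 and 18 reads in Homo and 41, 28 and 36 in Het, also without overlap in CPM (-0.56 ± 0.20, 0.557). Libraries did not overlap for 5 of 14 genes, against 15.9% of all genes tested, and these were Arcn1 and Copz1 (higher in Homo) and Arf3, Arfgap2 and Sec16a (lower in Homo). Of the 29 untested genes, Sec24d had 0 reads, and 6 members including it had fewer than 10 reads. With a mean of at least 1 CPM as the filter 37 members were tested, and with no filter 42. In these edgeR fits 0 members passed, where 1 and 43 of all genes did. Counts this low limit what a test can detect.

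**Figure D5:**
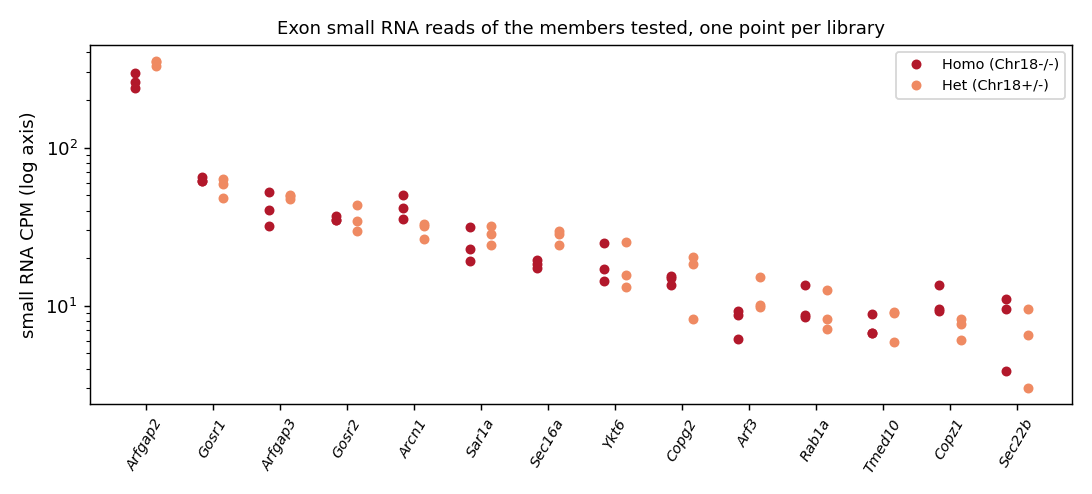
Small RNA reads on exons of the 14 genes tested, in CPM on a log axis, with 1 point per library, Homo left of Het for each gene. Arfgap2 lies far above the others, at 238 to 298 CPM in Homo and 329 to 353 CPM in Het.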

How the data were processed

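RNA-seq and small RNA were measured in testis samples grouped by the genotype in their titles. The authors deposited raw counts per feature. Per the file headers, featureCounts 1.6.2 counted properly paired RNA-seq fragments over whole gene bodies, introns included, on GENCODE M12 with 466 piRNA precursors, in a separate file per strand. A fragment in overlapping features of 1 strand was not counted. Small RNA counts came from featureCounts 1.6.1 over exons of 49585 genes, per the file headers. The submitters' processing notes name mm10 and mm9, and the aligner used for each kind of library is not given in the sources used here.

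Counts were analysed in edgeR 4.0.16 (R 4.3.3): filterByExpr, TMM scaling, 1 fit per kind of library and quasi-likelihood tests, with Benjamini-Hochberg adjustment over all features tested and a threshold of 0.05. DESeq2 1.42.0 was an alternative, and its adjusted p values are named as such. CPM are counts scaled to the TMM-adjusted library size, and standard errors belong to log2 fold changes. Opposite-strand CPM are scaled to opposite-strand totals, 2316563 to 4037905 counts per library before adjustment. Paralog ratios used counts with 0.5 added, which need no library scaling. The code was tested on simulated data. Genes that passed, or did not overlap at an adjusted p under 0.1, have their value given in every library, and up to 4 of the wider list are named per direction and comparison. The genes, lists and motifs were chosen with earlier results of these data known. The opposite-strand tests and the joint removal of WT library 1 and Het library 1 were chosen after seeing the data.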

Additional observations from a re-analysis of the deposited data

How the results depend on the processing

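No called gene changed direction under the alternatives run, but with no scaling the Het over WT median of the 43 genes went to 0.04, against -0.06 with TMM. For Homo over WT the 8 calls became 1 to 10 when each library was left out in turn (2 without Homo library 2, 1 without Homo library 3). The 4319 calls over all features became 1899 and 1805 in the fits named. For Het over WT the 10 calls became 4 to 8 (4 without WT library 1, 6 without Het library 1 or 3). Those over all features went from 4977 to 2901, 4091 and 2432. The fit of only the groups compared gave 6 in Het over WT, and leaving out WT library 1 and Het library 1 together gave 3. Over all features these fits gave 3829 and 2722. With no scaling, the split was 6 higher and 3 lower in Homo over WT (4 and 4 with TMM) and 5 higher and 3 lower in Het over WT (3 and 7 with TMM), where that setting put the median of all features at 0.1 in Het and 0.036 in Homo (0.163 and 0.103 on the opposite strand). Calls of Homo over Het stayed at 0 in each setting run. Of the single genes, Bet1 passed in 18 of 18 settings in both comparisons and Copz2 in 17 of 18 in Homo and 18 of 18 in Het. Kdelr1 was lost in 8 of 18 in Homo and 9 of 18 in Het, and Rab1a in 13 of 18 in Het. Copg2, Sec23b and Stx5a passed in Homo over WT with DESeq2 (adjusted p = 0.039, 0.0464 and 0.0491), and Sec23a in Het over WT (0.0433). The 5 opposite-strand calls in Homo over WT became 2 to 5 when each library was left out (2 without Homo library 2 or 3 or WT library 1 or 2, 3 without Het library 2), and the 3 in Het over WT became 2 to 4. In the Homo over WT fits named, the 1193 opposite-strand calls over all features became 338, 386, 484, 659 and 1079. In small RNA, the fit with the number in the titles as a replicate block called 0 members, as did the fit without it. The cause of these changes was not tested. The number of libraries and the low small RNA depth limit precision.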
